A study of Mus musculus with 18 samples.

Results

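The late response of parental WEHI-231 cells to ligation of their B cell receptor (BCR) was described from 4 of the 18 RNA sequencing libraries of the series, 2 of untreated cells (0 h) and 2 of cells kept for 18 h with 10 µg/ml anti-IgM F(ab')2 fragments. These libraries were chosen by their labels alone. The other 14 libraries were 2 of parental cells after 6 h of anti-IgM and 12 of the TFEB knockout clones #A-59 and #B-20, and they entered here only for time course values, the common estimate of the spread and the test of altered responses. WEHI-231 is a murine B cell lymphoma line with an IgM receptor and wild-type Tfeb in the parental cells, grown under the same conditions in every group, so that all values describe 1 tumor line in culture. The study names 2 independent experiments as the source of its replicates, and the labels do not say which libraries shared an experiment.

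WEHI-231 cells are known as a model of immature B cells that stop dividing and die when their receptor is cross-linked by anti-IgM. The proto-oncogene Myc heterodimerizes with Max on E-box sequences, drives genes of ribosome production and metabolism, and is opposed by Mxd proteins that share Max as a partner. FoxO factors are held outside the nucleus while phosphatidylinositol 3-kinase (PI3K) is active, and Bcl-2 family members decide whether mitochondria release cytochrome c.

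The libraries held 27571177 and 24305655 counts on genes at 0 h, and 11223588 and 19340288 at 18 h. Levels are given as CPM, counts scaled to a common library size (edgeR, TMM), in the order replicate 1 and replicate 2. The B cell identity of the line was checked on its 10 defining markers, all of which were detected in each of the 4 libraries. Their summed level was 9457 to 10280 CPM (here of the library total) at 0 h and 13260 to 13680 at 18 h. Of 11 T cell markers, 4 or 5 were at 0 counts in each of the 4 libraries, and Cd8b1 made up most of the sum, which was 59.8 to 62.0 CPM at 0 h and 70.0 to 77.5 at 18 h. The 6 NK cell markers together reached at most 0.155 CPM. The 10 myeloid markers summed to 6.83 to 7.76 CPM at 0 h and 11.8 to 13 at 18 h, with Lyz2, S100a8, S100a9 and Cd14 at 0 or 1 count. Cd68 made up most of this sum, with 138 and 107 counts at 0 h and 99 and 176 in the shallower libraries at 18 h. Fcgr1 followed with 47 and 39 counts at 0 h and 39 and 33 at 18 h. Erythroid markers stayed at or below 2.67 and stromal markers at or below 5.38 CPM. Plasma cell markers, mostly Xbp1, summed to 192 to 200 CPM at 0 h and 179 to 187 at 18 h.

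The first question was how many genes stood at another level after 18 h of BCR ligation. A gene was called if its adjusted p in edgeR's quasi-likelihood test was under 0.01 and its log2 fold change was above 1 or below −1. Of 15318 genes tested, 1579 (10.3%) were called, 851 of them higher (5.56%) and 728 lower (4.75%) at 18 h. The median log2 fold change over all genes tested was 0.04. Without a fold threshold, 2509 genes (16.4%) were higher and 2482 (16.2%) lower at the same adjusted p. Both libraries at 18 h lay above both at 0 h for 39.9% of all genes tested and below both for 36.2%. Every called gene was among these, so that a remark on non-overlap adds nothing to a call. Among the genes called higher, 658 were protein-coding and 115 were long non-coding, against 665 and 32 of those called lower. The higher group was also the less abundant one, with a median of 7.72 CPM at its higher time against 37.9 CPM for the genes called lower. Which direction had more calls depended on the setting. By DESeq2 728 genes were called higher and 699 lower, and with upper quartile scaling 965 and 634. Without a filter on low counts the numbers were 739 and 860. Fewer genes were called higher than lower whichever library of the comparison was left out. Bulk counts cannot tell fewer cells of a kind from less RNA per cell.

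**Figure D1:**
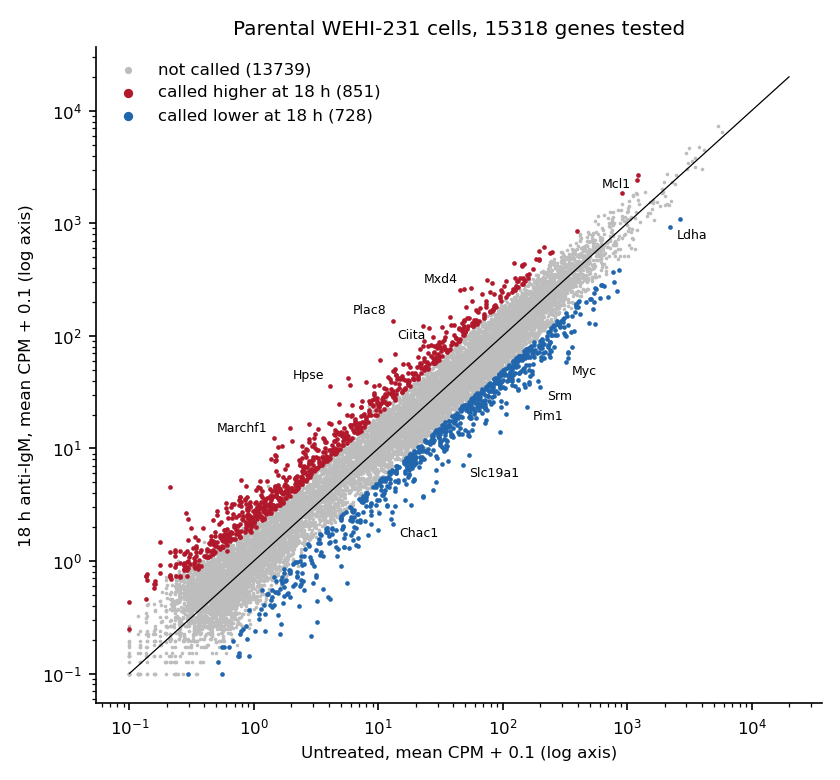
Mean CPM of the 2 untreated libraries (x axis) against mean CPM of the 2 libraries after 18 h of anti-IgM (y axis), both with 0.1 added and on log axes, for the 15318 genes tested; the line marks equal levels. The 851 genes called higher (red) and the 728 called lower (blue) lie on either side of the genes not called (grey), with Plac8 and Marchf1 far above the line and Myc, Srm and Pim1 far below it.

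Among protein-coding genes with a mean of at least 10 CPM at either time, Plac8, a small cysteine-rich protein of lymphoid and myeloid cells, rose most. It gave 13.1 and 13 CPM at 0 h, against 147 and 127 CPM at 18 h. The difference was 10.4-fold (log2 fold change 3.38, standard error 0.12, edgeR adjusted p = 5.26e-12). Marchf1, a ubiquitin ligase that removes MHC class II molecules from the cell surface, stood at 0.976 and 1.74 CPM at 0 h, against 12.8 and 11.6 CPM at 18 h, a log2 fold change of 3.17 (standard error 0.30, edgeR adjusted p = 1.46e-07). Hpse, the heparan sulfate-cleaving heparanase, went from 4.20 and 3.85 CPM to 37.9 and 34.0 CPM, a log2 fold change of 3.15 (standard error 0.21, edgeR adjusted p = 4e-09). For all 3 genes both libraries at 18 h lay above both at 0 h, as the choice of these genes required. The other 7 genes at the upper end had log2 fold changes between 2.58 and 2.99. They were the chemokine receptor Ccr1, the ganglioside activator Gm2a, the ribonuclease Rnase6, the protease inhibitor Serpinb1a, the PI3K inhibitor Pik3ip1, the oxysterol receptor Gpr183 and the calcium-dependent kinase kinase Camkk1.

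At the lower end stood Ccnb1ip1, a RING finger protein known from meiotic recombination, with 92.5 and 98.5 CPM at 0 h, against 14.9 and 12.7 CPM at 18 h. Its log2 fold change was −2.81 (standard error 0.18, edgeR adjusted p = 6.39e-09). Slc19a1, the reduced folate carrier, fell from 45.2 and 50.1 CPM to 7.94 and 6.22 CPM, a log2 fold change of −2.78 (standard error 0.15, edgeR adjusted p = 6.96e-10). Pim1, a survival kinase, fell from 163 and 149 CPM to 26.3 and 19.97 CPM, a log2 fold change of −2.77 (standard error 0.18, edgeR adjusted p = 5.11e-09). The libraries of the 2 times did not overlap for any of these 3 genes, as their choice required. The other 7 were the actin-binding Palld, the carbonic anhydrase Car12, the glutathione-degrading Chac1, the membrane proteins Lingo3, Cntnap1 and Cdh22, and the spermidine synthase Srm, with log2 fold changes between −2.71 and −2.53. Cntnap1 was no longer called without replicate 2 at 18 h.

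The growth program of the cells was described by genes of ribosome production and of nucleotide synthesis. Of 48 genes for nucleolar processing and RNA polymerase I, all tested, 34 fell, none was called higher and 14 were not called, against 4.75% of all genes called lower. Their median log2 fold change was −1.32, and 47 of the 48 values were negative. The summed level of the 48 genes was 12160 and 11950 CPM at 0 h, against 5644 and 5619 CPM at 18 h. Nolc1, a nucleolar phosphoprotein, gave 331 and 342 CPM at 0 h, against 78.8 and 62.4 CPM at 18 h. Its log2 fold change was −2.26 (standard error 0.19, edgeR adjusted p = 2.67e-07). Gnl3, the GTPase nucleostemin, went from 373 and 351 CPM to 87.8 and 71.3 CPM, a log2 fold change of −2.19 (standard error 0.18, edgeR adjusted p = 1.6e-07). The processing factors Rrp1b (−2.29), Ppan (−2.11), Nop2 (−2.06) and Rrp12 (−2.06) completed the 6 largest log2 fold changes. For each of the 6 genes both libraries at 18 h lay below both at 0 h, as for every gene called lower.

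The 28 tested genes of purine, pyrimidine, one-carbon and polyamine synthesis gave a like count: 18 fell, none was called higher, and the median log2 fold change was −1.21 with all 28 values negative. Srm, which makes spermidine, gave 200 and 202 CPM at 0 h, against 35.4 and 34.0 CPM at 18 h, a log2 fold change of −2.53 (standard error 0.19, edgeR adjusted p = 4.08e-08). Shmt1, a serine hydroxymethyltransferase of the folate cycle, went from 173 and 167 CPM to 47.9 and 42.7 CPM, a log2 fold change of −1.91 (standard error 0.11, edgeR adjusted p = 1.48e-09). Cad, which carries the first steps of pyrimidine synthesis, stood at 371 and 383 CPM at 0 h, against 116 and 106 CPM at 18 h. Its log2 fold change was −1.77 (standard error 0.14, edgeR adjusted p = 3.65e-08). Gart (−1.71) of purine synthesis, Mthfd1 (−1.56) of the folate cycle and Umps (−1.53) of pyrimidine synthesis followed. None of these genes had libraries that overlapped between the times, as was so for every called gene. The counts of both lists changed little with the processing, with 32 to 36 genes of ribosome production and 16 to 19 of nucleotide synthesis called lower.

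Promoters were searched for the E-box CACGTG, which reads the same on both strands and is bound by Myc and by the TFEB family alike. Windows of 300 bases, from 250 before to 50 after the annotated start, came from RefSeq on GRCm38.p6, the build of the counts, with the first window of each gene. The E-box stood in 7.24% of the windows of all 27025 genes with a window and in 9.97% of those of 10172 genes tested. It was present in 12 of 43 windows (27.9%) of ribosome production and in 5 of 25 of nucleotide synthesis. These counts take in all list members with a window, whether called or not. Among the called genes of nucleotide synthesis the search for examples to show returned Atic alone. Over the whole comparison it occurred in 99 of 543 windows (18.2%) of genes called lower and in 36 of 560 (6.43%) of genes called higher. The lysosome list, of which 2 genes rose and none fell, held it in 13 of 41 windows (31.7%), so that the letters were also frequent in a list with no member called lower. Shown are the called genes of both lists with the largest changes among those with an E-box, in capitals, which makes up to 3 per list; apart from Nop2 they were named after their values had been seen.
Nop2, chr6:125131633-125131932, + strand: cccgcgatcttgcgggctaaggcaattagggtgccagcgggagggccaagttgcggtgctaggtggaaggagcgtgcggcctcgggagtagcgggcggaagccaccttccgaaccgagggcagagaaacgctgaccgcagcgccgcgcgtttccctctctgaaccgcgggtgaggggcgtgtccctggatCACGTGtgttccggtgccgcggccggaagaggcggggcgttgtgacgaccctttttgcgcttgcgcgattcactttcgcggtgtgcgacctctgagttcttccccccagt
Mybbp1a, chr11:72441077-72441376, + strand: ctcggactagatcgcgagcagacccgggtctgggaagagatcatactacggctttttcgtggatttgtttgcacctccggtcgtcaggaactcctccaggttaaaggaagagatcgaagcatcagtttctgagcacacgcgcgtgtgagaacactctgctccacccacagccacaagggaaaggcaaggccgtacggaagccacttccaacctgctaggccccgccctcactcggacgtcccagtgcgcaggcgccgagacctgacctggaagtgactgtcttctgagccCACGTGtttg
Utp4, chr8:106893390-106893689, + strand: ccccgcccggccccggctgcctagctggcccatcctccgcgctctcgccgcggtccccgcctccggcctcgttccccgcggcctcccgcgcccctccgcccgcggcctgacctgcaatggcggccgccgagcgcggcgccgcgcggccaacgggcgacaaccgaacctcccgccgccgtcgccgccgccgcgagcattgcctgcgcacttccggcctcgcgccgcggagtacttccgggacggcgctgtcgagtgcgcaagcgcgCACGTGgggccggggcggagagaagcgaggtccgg
Atic, chr1:71556906-71557205, + strand: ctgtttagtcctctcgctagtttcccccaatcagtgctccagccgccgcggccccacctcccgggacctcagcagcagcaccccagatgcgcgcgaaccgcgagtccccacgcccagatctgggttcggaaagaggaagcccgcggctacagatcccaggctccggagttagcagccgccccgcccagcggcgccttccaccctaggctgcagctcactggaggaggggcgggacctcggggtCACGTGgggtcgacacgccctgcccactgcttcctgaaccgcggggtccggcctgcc

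In Nop2 the E-box began 60 bases before the start and in Atic 7 bases before it, whereas in Mybbp1a and Utp4 it lay within the first 50 transcribed bases. Mybbp1a, a Myb-binding nucleolar protein, gave 713 and 683 CPM at 0 h, against 227 and 217 CPM at 18 h, a log2 fold change of −1.65. Utp4, a subunit of the small subunit processome, gave 140 and 153 CPM and then 50.3 and 50.4 CPM, a log2 fold change of −1.54. Atic, which carries the last steps of purine synthesis, gave 270 and 255 CPM and then 112 and 112 CPM, a log2 fold change of −1.23. All 4 genes were called, with no overlap between the times. Whether any factor occupied these letters was not measured.

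Myc itself (ENSMUSG00000022346, chr15:61985341-61990361 of GRCm38) gave 337 and 306 CPM at 0 h, then 162 and 158 at 6 h, and finally 72.8 and 43.1 at 18 h. The level at 18 h was thus below that at 0 h and at 6 h in both libraries. The log2 fold change at 18 h against 0 h was −2.48 (standard error 0.34, edgeR adjusted p = 0.00014). With only the 4 libraries of the comparison in the fit it was −2.53 and missed the threshold (edgeR adjusted p = 0.0158). Mxd4, a Max partner that represses E-box genes, rose from 38.7 and 59 CPM to 244 and 273 CPM, a log2 fold change of 2.41 (standard error 0.17, edgeR adjusted p = 1.49e-08). Mxd3 of the same family rose by a log2 fold change of 1.01 from 12.2 and 9.89 CPM to 19.3 and 24.9 CPM, a call that ended without replicate 2 of either time. Of the 13 genes of this network 10 were not called.

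Genes of the replication machinery were lower by less. Of 53 genes of DNA replication, 3 fell by more than the fold threshold and none rose, against 4.75% and 5.56% of all genes. At any fold change 35 were lower with an adjusted p under 0.01, against 16.2% of all genes. The median log2 fold change was −0.50, with 50 of 53 values negative. Pold2, a subunit of DNA polymerase delta, gave 78.6 and 75.8 CPM at 0 h, against 26.4 and 26.0 CPM at 18 h, a log2 fold change of −1.56 (standard error 0.15, edgeR adjusted p = 2.09e-07). Orc1 of the origin recognition complex (−1.23) and Mcm2 of the replicative helicase (−1.02) were the other 2. Mcm2 was no longer called without replicate 1 at 0 h or replicate 2 at 18 h. The count of the list was 5 without replicate 2 at 0 h or without replicate 1 at 18 h. The clamp Pcna gave 109 and 90.4 CPM at 0 h, against 77.1 and 67.1 CPM at 18 h and was not called (−0.47, edgeR adjusted p = 0.0114).

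Of 60 mitotic genes 1 fell by more than the fold threshold and none rose, against 4.75% and 5.56% of all genes. It was the phosphatase gene Cdc25a (124 and 126 CPM at 0 h, against 65.4 and 56.0 at 18 h, log2 fold change −1.05), and the call ended without replicate 2 at 18 h. At any fold change 14 were lower and 4 higher with an adjusted p under 0.01, against 16.2% and 16.4% of all genes. The median log2 fold change was −0.19, with 48 of 60 values negative. The proliferation marker Mki67 gave 3497 and 3482 CPM at 0 h, then 2672 and 2680 at 6 h, and finally 3122 and 3176 at 18 h, a log2 fold change at 18 h of −0.15 (standard error 0.10, edgeR adjusted p = 0.275). Cyclin A gene Ccna2 gave 288 and 275 CPM at 0 h, against 211 and 216 CPM at 18 h, a log2 fold change of −0.40 that was below the fold threshold. Both libraries at 18 h lay below both at 0 h for either gene, as they did for 36.2% of all genes tested.

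Regulators of the G1 phase went both ways. Of 38 genes tested, 4 rose and 4 fell, against 5.56% and 4.75% of all genes, and the median log2 fold change was −0.10. The D-type cyclin Ccnd1 fell from 84.0 and 81.1 CPM to 28.8 and 28.8 CPM (−1.52, edgeR adjusted p = 0.00134), a call that ended without either library at 18 h. The kinase Cdk6 fell from 221 and 256 CPM to 91.2 and 85.2 CPM (−1.44, edgeR adjusted p = 1.97e-08). Mybl2, a partner of the cell cycle complex DREAM (−1.29), and Tfdp1, the dimer partner of E2F (−1.11), also fell. The genes that rose were the antiproliferative Btg2 (1.54) and Btg1 (1.22), the atypical cyclin gene Ccng2 (1.36) and the CDK4/6 inhibitor gene Cdkn2d (1.06), the last not without replicate 1 at 0 h. The CDK inhibitor gene Cdkn1b, which encodes p27, gave 185 and 189 CPM at 0 h, then 196 and 227 at 6 h, and finally 329 and 368 at 18 h, a log2 fold change of 0.90 (standard error 0.16, edgeR adjusted p = 0.000223) that stood just below the fold threshold. The pocket protein gene Rbl2 was as near to it, with 45.2 and 46.2 CPM at 0 h, against 88.8 and 91.2 CPM at 18 h (0.98). Cdkn1a, which encodes p21, gave 74.6 and 77.0 CPM at 0 h, against 68.1 and 76.2 CPM at 18 h, with overlapping libraries. Cdk4 gave 459 and 422 CPM at 0 h, against 263 and 259 CPM at 18 h (−0.76) and Ccnd2 236 and 252 CPM against 166 and 145 CPM (−0.65), both below the fold threshold. The levels of Ccnd3, Ccne1 and E2f1 at 18 h were lower by log2 values of 0.32 to 0.43 and were not called.

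**Figure D2:**
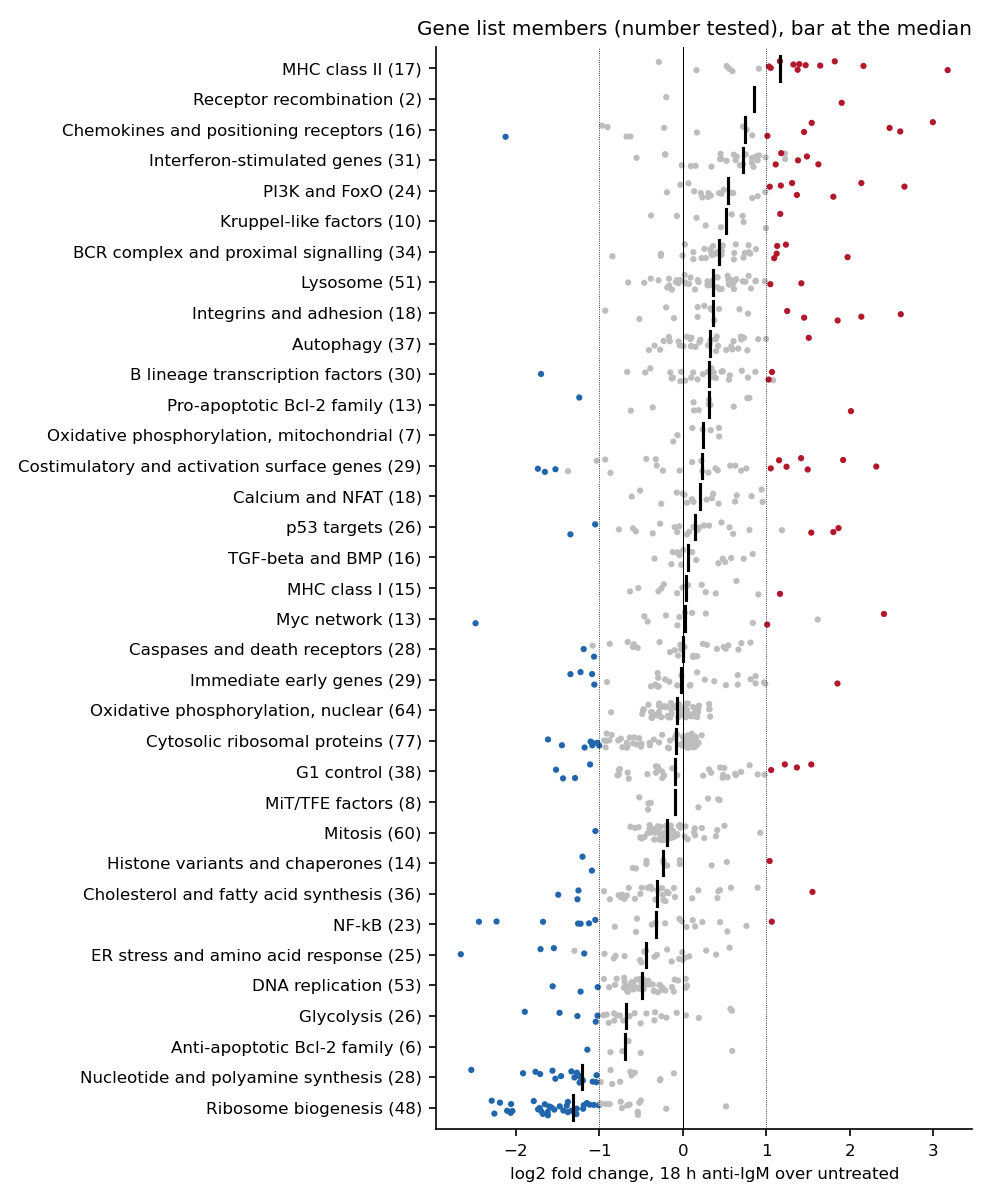
log2 fold change at 18 h against 0 h (x axis) of each tested member of 35 gene lists (rows, with the number tested), colored red where called higher, blue where called lower and grey where not called; black bars mark the list medians and dotted lines the fold threshold. Medians run from −1.32 for ribosome biogenesis to 1.16 for MHC class II, while the 60 mitosis genes cluster near 0.

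Genes of the apoptosis machinery were called about as often as the 10.3% of all genes. Of 13 tested pro-apoptotic members of the Bcl-2 family 1 rose and 1 fell. Bmf, a BH3-only protein, gave 3.36 and 4.84 CPM at 0 h, then 6.6 and 7.24 at 6 h, and finally 16.1 and 16.8 at 18 h, each time without overlap. Its log2 fold change at 18 h was 2.01 (standard error 0.17, edgeR adjusted p = 5.84e-08). Bid, the BH3-only protein cut by caspase 8, fell from 390 and 378 CPM to 172 and 153 CPM (−1.24, edgeR adjusted p = 3.52e-08). Bcl2l11, which encodes Bim, gave 30.6 and 27.3 CPM at 0 h, against 39.96 and 32.4 CPM at 18 h, a log2 fold change of 0.31 (standard error 0.18, edgeR adjusted p = 0.172). Bcl2l15 gave 239 and 250 CPM at 0 h, against 366 and 380 CPM at 18 h (0.61), below the fold threshold. Hrk had at most 1 count in any parental library.

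Of 6 tested survival members 1 fell. Mcl1 gave 1169 and 1234 CPM at 0 h, then 786 and 795 at 6 h, and finally 1806 and 1810 at 18 h. Its level was thus lower at 6 h and higher at 18 h than in untreated cells, with log2 fold changes of −0.60 and 0.59 against 0 h, both below the fold threshold. Against 6 h its level at 18 h rose by a log2 fold change of 1.19 (edgeR adjusted p = 1.12e-08). Bcl2 gave 106 and 101 CPM at 0 h, against 82.6 and 64.1 CPM at 18 h (−0.51), and Bcl2l1, which encodes Bcl-xL, 10.1 and 13.1 CPM against 7.67 and 6.43 CPM (−0.73). Bcl2a1d fell (−1.14), a call that ended without replicate 2 at 18 h, and its near-identical copies, among them Bcl2a1b (−0.87, not called), may share reads with it. Among 28 tested caspase, inhibitor and death receptor genes Endog, a mitochondrial nuclease, and Birc3, an inhibitor of apoptosis under NF-κB control, fell, with log2 fold changes of −1.19 and −1.06, and Birc3 was not called without replicate 2 at 18 h.

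Of 26 tested p53 targets 3 rose and 2 fell, against 5.56% and 4.75% of all genes. Trp53inp1, an autophagy-linked nuclear protein, rose from 109 and 136 CPM to 440 and 453 CPM (1.86, edgeR adjusted p = 3.73e-06). Sesn3, which is also a FoxO target, rose from 62.9 and 72.7 CPM to 236 and 236 CPM (1.80), and Btg2 is named above. The glycolysis regulator Tigar (−1.35) and the nuclease Aen (−1.05) fell, the latter not without replicate 2 at 18 h. Trp53 gave 219 and 215 CPM at 0 h, against 128 and 127 CPM at 18 h, a log2 fold change of −0.77 that stood below the fold threshold.

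PI3K and FoxO genes moved in 1 direction among those called. Of 24 tested genes 7 rose, none fell and the median log2 fold change was 0.54, against 5.56% of all genes called higher and a median of 0.04. Pik3ip1, which binds and inhibits the catalytic PI3K subunit, gave 4.92 and 6.79 CPM at 0 h, then 10.7 and 13.1 at 6 h, and finally 36.7 and 36.6 at 18 h, each time without overlap. Its log2 fold change at 18 h was 2.65 (standard error 0.19, edgeR adjusted p = 8.49e-09). The PI3K subunit gene Pik3r5 (1.31), Txnip (1.17), a brake on glucose uptake, and Ccng2 and Sesn3 belonged to the same group, and Txnip was not called without replicate 1 at 18 h. Foxo1 rose from 6.76 and 6.45 CPM to 13.6 and 13.6 CPM (1.04, edgeR adjusted p = 8.56e-05), a call that ended without replicate 2 at 0 h. Klf2 gave 97.1 and 132 CPM at 0 h, then 45.6 and 54.4 at 6 h, and finally 151 and 192 at 18 h, and was called lower at 6 h and not at 18 h (0.58). Rag1 and Il7r, textbook FoxO targets of immature B cells, had 0 counts in all 6 parental libraries, which allows up to 3 counts in each of them, and no fold is given.

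Among genes of glucose and amino acid metabolism the calls went down. Of 26 genes of glycolysis 5 fell and none rose, with a median of −0.68, where 4.75% of all genes tested were called lower. The lactate transporter gene Slc16a1 fell from 240 and 238 CPM to 63.6 and 64.7 CPM (−1.89, edgeR adjusted p = 2.1e-10). The lactate dehydrogenase gene Ldha fell from 2251 and 2204 CPM to 895 and 961 CPM (−1.26, edgeR adjusted p = 1.21e-05). The hexokinase gene Hk2 (−1.48) lost its call without any one of the 4 libraries and Pgam1 (−1.02) without replicate 1 of either time, and Ldhb (−1.04) completed the list. Of the list 3 genes were called without replicate 1 of either time and 2 with upper quartile scaling. Of 25 genes of the unfolded protein and amino acid response 4 fell, and all of them belong to the amino acid branch. They were Chac1 (−2.66), the amino acid transporter gene Slc7a5 (−1.71), the asparagine synthetase gene Asns (−1.55) and their activator Atf4, which gave 294 and 268 CPM at 0 h, against 126 and 122 CPM at 18 h (−1.18, edgeR adjusted p = 4.94e-09). Of 36 genes of cholesterol and fatty acid synthesis 3 fell and 1 rose, against 4.75% and 5.56% of all genes. Fasn (−1.26) and Fads2 (−1.25) were among those that fell, and the cholesterol exporter gene Abca1 rose from 142 and 145 CPM to 410 and 432 CPM (1.55). None of the 64 tested nuclear genes and of the 7 tested mitochondrial genes of oxidative phosphorylation was called by edgeR or by DESeq2, with 17 and 2 at an unadjusted p under 0.05, and their medians were −0.07 and 0.24.

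The list of MHC class II genes, which holds members that promote and members that limit antigen presentation, stood out among the lists with higher levels. Of 17 genes 11 rose and none fell, against 5.56% and 4.75% of all genes. Their median log2 fold change was 1.16, and 16 of 17 values were positive. Summed over the list, they gave 1980 and 2242 CPM at 0 h, then 1599 and 1729 at 6 h, and finally 3819 and 3733 at 18 h. Ciita (ENSMUSG00000022504, chr16:10480014-10531064 of GRCm38), the master transactivator of the class, gave 24.95 and 28.3 CPM at 0 h, against 81.7 and 84.6 CPM at 18 h, a log2 fold change of 1.64 (standard error 0.15, edgeR adjusted p = 7.08e-08). Of the chains, H2-Aa rose from 68.2 and 101 CPM to 222 and 246 CPM (1.47, edgeR adjusted p = 2.04e-05), and was not called with only the 4 libraries in the fit (edgeR adjusted p = 0.0229). The largest rise of the list was that of Marchf1 (3.17), named above, whose product removes class II molecules from the surface. H2-Ob (1.82) and H2-DMb1 (1.39), which act on peptide loading, rose as well. The invariant chain gene Cd74 rose from 823 and 983 CPM to 1892 and 1796 CPM (1.03, edgeR adjusted p = 1.46e-06), a call that ended without replicate 1 of either time or without a filter on low counts. The little expressed H2-Eb2 gave 0.145 and 0.207 CPM at 0 h, against 0.981 and 0.674 CPM at 18 h, and its call (2.16) did not hold without any one of the 4 libraries. Both libraries at 18 h lay above both at 0 h for each of these genes. Without replicate 1 at 0 h 6 of the 17 genes were called, and with the 4 libraries alone 7. The H2 genes differ between mouse strains, and reads of this line, which is not of the strain of the reference genome, may be lost unequally among them.

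The CCAAT box, part of the composite element of class II promoters, was searched on both strands of the same windows. It occurred in 9 of 13 windows (69.2%) of the class II list, against 38.8% of those of genes tested and 36.1% of those of genes called higher. The mitosis list held it in 39 of 50 windows (78.0%) and the DNA replication list in 26 of 43 (60.5%). The letters were thus also frequent in lists with no member called higher. Shown are the 3 called class II genes with the largest changes among those that hold it, with the box in capitals, all read as ATTGG, its reverse complement. In H2-Eb2 it began 100 bases, in H2-Ob 57 bases and in H2-Aa 48 bases before the start that placed the window. For H2-Eb2 this start lies inside the gene, whose annotated first base is 34325503, so that the box lies within the gene.
H2-Eb2, chr17:34325425-34325724, + strand: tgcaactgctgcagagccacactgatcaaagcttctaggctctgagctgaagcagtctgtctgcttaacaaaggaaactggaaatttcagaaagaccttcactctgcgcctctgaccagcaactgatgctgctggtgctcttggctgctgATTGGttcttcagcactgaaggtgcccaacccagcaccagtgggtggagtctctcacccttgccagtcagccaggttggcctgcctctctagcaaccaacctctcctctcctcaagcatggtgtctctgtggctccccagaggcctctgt
H2-Ob, chr17:34238655-34238954, + strand: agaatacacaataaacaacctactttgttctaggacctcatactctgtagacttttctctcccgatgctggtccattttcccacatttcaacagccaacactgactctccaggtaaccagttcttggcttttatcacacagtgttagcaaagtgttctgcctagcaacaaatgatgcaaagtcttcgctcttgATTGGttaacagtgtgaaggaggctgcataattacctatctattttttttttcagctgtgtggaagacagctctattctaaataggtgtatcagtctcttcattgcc
H2-Aa, chr17:34287774-34288073, - strand: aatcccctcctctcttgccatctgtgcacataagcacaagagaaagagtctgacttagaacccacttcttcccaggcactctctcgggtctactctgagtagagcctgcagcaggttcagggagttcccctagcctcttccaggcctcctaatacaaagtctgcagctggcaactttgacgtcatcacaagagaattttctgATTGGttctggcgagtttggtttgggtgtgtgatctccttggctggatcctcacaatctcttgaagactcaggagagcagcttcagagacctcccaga

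Of 15 genes of MHC class I, 1 was called, H2-T23, a non-classical chain (33.0 and 35.3 CPM at 0 h, against 84.4 and 68.9 at 18 h, log2 fold change 1.16), and it was no longer called without replicate 1 at 18 h. The median was 0.04. Of 31 interferon-stimulated genes 5 rose, against 5.56% of all genes. The RNA sensor gene Rigi led them (73.8 and 84.6 CPM at 0 h, against 259 and 229 at 18 h, 1.62, edgeR adjusted p = 4.62e-09). For Zbp1 (91.4 and 50.3 CPM at 18 h), Xaf1 (38.9 and 23.3), Trim30a (277 and 156) and Irf7 (327 and 222), replicate 1 was the higher of the libraries at 18 h, although both stayed above those at 0 h. Without that library 1 gene of the list was called, Rigi being the one gene of the 5 that kept its call, and without replicate 2 at 18 h there were 10 called. Without replicate 2 at 0 h there were 3, and with only the 4 libraries in the fit there was 1.

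**Figure D3:**
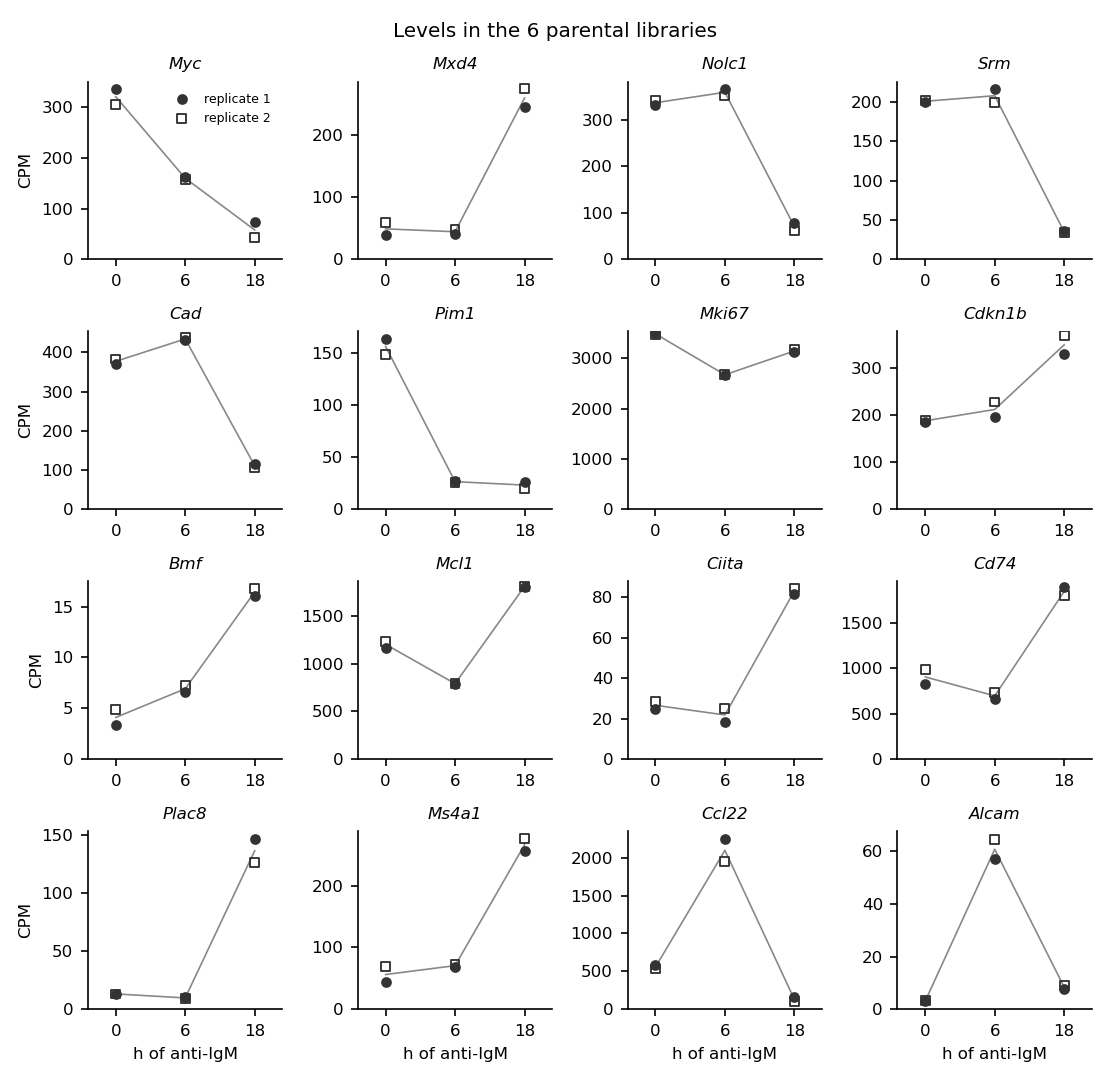
CPM (y axes, each from 0) of 16 genes in the 6 parental libraries at 0, 6 and 18 h of anti-IgM (x axes), with replicate 1 as filled circles, replicate 2 as open squares and lines through the means. Nolc1, Srm and Cad stand near their untreated level at 6 h and far below it at 18 h, Pim1 has already dropped at 6 h, and Ccl22 and Alcam peak at 6 h.

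Among surface and signaling genes of B cells, Ms4a1, which encodes CD20, rose from 43.2 and 68.8 CPM to 256 and 276 CPM (2.25, standard error 0.28, edgeR adjusted p = 3.81e-05), a call that was lost with only the 4 libraries in the fit (2.23, edgeR adjusted p = 0.0154). Of 34 tested genes of the BCR complex and its proximal signaling 5 rose and none fell, against 5.56% and 4.75% of all genes. At any fold change 24 were higher and 3 lower with an adjusted p under 0.01, against 16.4% and 16.2% of all genes. The inhibitory Fc receptor gene Fcgr2b rose from 37.5 and 37.4 CPM to 158 and 136 CPM (1.97, standard error 0.09, edgeR adjusted p = 1.49e-10). The adaptor genes Bank1 (1.23) and Dapp1 (1.09), the kinase gene Lyn (1.13) and the phosphatase gene Ptprc, which encodes CD45 (1.12), were the others. Without replicate 1 at 0 h 3 of the list were called higher, Lyn and Dapp1 being lost. The receptor chains themselves were not called: Ighm gave 3547 and 3958 CPM at 0 h, against 4698 and 4733 CPM at 18 h (0.33), and Cd79a 1007 and 1071 CPM against 1615 and 1558 CPM (0.61). Vpreb3 rose from 10.9 and 15.4 CPM to 46.7 and 51.0 CPM (1.90, edgeR adjusted p = 8.88e-08).

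Of 16 tested chemokines and positioning receptors 6 rose and 1 fell, against 5.56% and 4.75% of all genes. Ccr1 rose from 2.42 and 1.28 CPM to 17.9 and 12.3 CPM (2.99, edgeR adjusted p = 3.27e-06), and Gpr183, which guides B cells along oxysterols, from 2.42 and 2.94 CPM to 18.4 and 14.4 CPM (2.60, edgeR adjusted p = 5.4e-07). Ccr7, the receptor for entry into the T cell zone, gave 1.30 and 1.53 CPM at 0 h, then 6.33 and 7.82 at 6 h, and finally 7.31 and 8.35 at 18 h (2.47, edgeR adjusted p = 2.4e-07), so that its rise was present at 6 h. S1pr4 (1.45) and Ccr6 (1.01) were also among those that rose, the latter not by DESeq2, with another filter, with fewer groups in the fit, or without replicate 1 at 0 h or either library at 18 h. The chemokine gene Ccl22 gave 579 and 531 CPM at 0 h, then 2244 and 1954 at 6 h, and finally 158 and 97.0 at 18 h. It was called higher at 6 h (1.92, edgeR adjusted p = 9.23e-06) and lower at 18 h (−2.12, edgeR adjusted p = 8.14e-07), and with only the 4 libraries in the fit the latter was not called (edgeR adjusted p = 0.0221). Cxcr4 gave 63.9 and 51.0 CPM at 0 h, against 29.5 and 29.2 CPM at 18 h (−0.97), just short of the fold threshold.

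Of 18 tested adhesion genes 5 rose, where 5.56% of all genes tested were called higher and 4.75% lower. Itgam, the integrin alpha chain of Mac-1, rose from 1.12 and 1.45 CPM to 8.38 and 7.36 CPM (2.61, edgeR adjusted p = 2.09e-07). Itgb7 gave 44.4 and 56.1 CPM at 0 h, then 16.5 and 19.8 at 6 h, and finally 174 and 189 at 18 h, and was called lower at 6 h (−1.47) and higher at 18 h (1.85). Alcam gave 2.89 and 3.27 CPM at 0 h, then 57.1 and 64.6 at 6 h, and finally 7.58 and 9.08 at 18 h, so that most of its rise at 6 h (4.30) was gone at 18 h (1.45). Pecam1 (1.25) was also among those called. Of 29 tested costimulatory and activation genes 7 rose, among them Slamf6 (2.32), Il10ra (1.92), Spn (1.49), Cd274, which encodes PD-L1 (1.41), Cd27 (1.24) and Pdcd1, which encodes PD-1 (1.15). Pdcd1 lost its call without replicate 2 at 0 h or replicate 1 at 18 h. The 3 that fell were Cd24a (−1.74), the costimulatory receptor Cd40 (199 and 205 CPM at 0 h, against 72.1 and 56.7 at 18 h, −1.65, edgeR adjusted p = 6.97e-08) and the cytokine receptor Il21r (−1.53), and 5 were lower without replicate 1 of either time. Cd24a was not called with only the 4 libraries in the fit (edgeR adjusted p = 0.019). Cd86 stayed below 0.45 CPM in every parental library.

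Several genes under NF-κB control stood lower at both times. Of 23 tested genes 7 fell and 1 rose at 18 h, against 4.75% and 5.56% of all genes, and 4 fell at 6 h, against 1.46%. Nfkbia, the inhibitor IκBα, gave 235 and 242 CPM at 0 h, then 59.99 and 64.9 at 6 h, and finally 82.2 and 67.8 at 18 h (−1.68, edgeR adjusted p = 3.66e-08). Tnfaip3, which encodes the ubiquitin-editing enzyme A20, gave 119 and 94.8 CPM at 0 h, then 26.1 and 24.6 at 6 h, and finally 23.9 and 16.2 at 18 h (−2.44, edgeR adjusted p = 1.61e-05). The atypical inhibitor gene Nfkbid gave 323 and 346 CPM, 95.9 and 99.1 CPM, and 76.4 and 66.3 CPM (−2.23, edgeR adjusted p = 6.96e-10). All 3 were called lower at 6 h too, and none of them was called between 6 and 18 h. Nfkbie (−1.26), Ikbke (−1.23) and the subunit gene Relb (−1.13) also fell, Relb not without replicate 2 at 18 h. Traf1 (1.06) rose, but not without replicate 1 at 18 h.

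Immediate early genes, which respond to the receptor within minutes, varied between the libraries at 18 h. Egr1 gave 47.9 and 57.1 CPM at 0 h, against 92.2 and 21.4 CPM at 18 h, so that replicate 1 lay above and replicate 2 below both untreated libraries (0.08, edgeR adjusted p = 0.942). Cd69, an activation marker, gave 11.6 and 11.4 CPM at 0 h, against 8.12 and 1.71 CPM at 18 h (−1.38, edgeR adjusted p = 0.196), and Fos 0.687 and 0.910 CPM against 2.4975 and 0.934 CPM. The ERK phosphatase gene Dusp6 rose from 11.4 and 12.3 CPM to 54.9 and 31.4 CPM (1.85, edgeR adjusted p = 3.85e-05) and was not called with only the 4 libraries in the fit. Nr4a1 (−1.09), Ier3 (−1.35), Maff (−1.23) and Spred1 (−1.06) were called lower, and only 1 to 2 of the list were so when any one library was left out, Maff among them each time.

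Of 30 tested transcription factors of the B lineage 2 rose and 1 fell, a share near the 10.3% of all genes called. At any fold change 12 were higher and 3 lower with an adjusted p under 0.01, against 16.4% and 16.2% of all genes. The median log2 fold change was 0.32. Irf4, which directs plasma cell and germinal center fates by its dose, fell from 161 and 163 CPM to 54.3 and 45.7 CPM (−1.70, standard error 0.11, edgeR adjusted p = 3.3e-09). The homeobox gene Hhex gave 91.9 and 102 CPM at 0 h, then 52.3 and 51.4 at 6 h, and finally 214 and 192 at 18 h (1.07), and Mef2c rose by 1.03, with calls that ended without replicate 1 of either time. Pax5, the B cell identity factor, gave 1862 and 1934 CPM at 0 h, then 1034 and 1017 at 6 h, and finally 1977 and 1739 at 18 h, a log2 fold change at 18 h of −0.03 (standard error 0.09, edgeR adjusted p = 0.801). Id3, an inhibitor of E proteins, gave 35.7 and 43.9 CPM, 21.9 and 18.9 CPM, and 65.4 and 64.3 CPM (0.70, not called), and Id2 and Bcl6 stayed below 5 CPM. Prdm1, the plasma cell factor, had between 0 and 5 counts in each library. Sdc1, the plasma cell marker CD138, fell from 3.11 and 3.02 CPM to 0.624 and 0.622 CPM (−2.29, edgeR adjusted p = 3.13e-06).

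Many lysosome genes stood slightly higher at 18 h, and few of them by more than the fold threshold. Of 51 tested lysosome genes 2 rose and none fell, against 5.56% and 4.75% of all genes. The cathepsin gene Ctsh was among those that rose (63.1 and 68.5 CPM at 0 h, against 179 and 173 at 18 h, 1.42, edgeR adjusted p = 5.11e-09). At any fold change 28 were higher and 1 lower with an adjusted p under 0.01, against 16.4% and 16.2% of all genes, and the median was 0.36. Of 37 autophagy genes 1 rose, the receptor gene Calcoco1 (1.51), and none fell, against 5.56% and 4.75% of all genes. The median was 0.32. At any fold change 14 were higher and 2 lower with an adjusted p under 0.01, against 16.4% and 16.2% of all genes. None of the 8 tested genes of the TFEB family and its regulators was called by edgeR or by DESeq2, with 6 of them at an unadjusted p under 0.05. Tfeb gave 79.2 and 82.8 CPM at 0 h, against 99.7 and 99.9 CPM at 18 h (0.30, edgeR adjusted p = 0.028).

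Among 77 cytosolic ribosomal protein genes 8 fell and none was called higher, against 4.75% of all genes called lower. At any fold change 23 were lower and none higher with an adjusted p under 0.01, against 16.2% and 16.4% of all genes. The median was −0.08, with Rps6 (−1.62) and Rpl10a (−1.45) lowest. These genes have many processed copies, and Rps6 gave only 4.34 and 3.43 CPM at 0 h, and reads that fit several copies may not have been counted. Of 14 histone variant and chaperone genes Hells (−1.2) and Nasp (−1.09) fell and H2az2 (1.04) rose, and of 10 Krüppel-like factors Klf9 rose (1.17). Over all genes tested, 4.75% were called lower and 5.56% higher. Neither H2az2 nor Klf9 was called without replicate 1 at 0 h or replicate 2 at 18 h. None of 18 calcium and NFAT genes and none of 16 TGF-β and BMP genes was called by edgeR or by DESeq2, with 12 and 5 of them at an unadjusted p under 0.05. Lat, a T cell adaptor and the one T cell marker called, rose from 2.64 and 2.94 CPM to 7.22 and 5.76 CPM (1.2), while Cd3e had 0 counts in both libraries at 18 h.

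The time course showed which of these groups were already displaced at 6 h. Against 0 h, 402 genes (2.62%) were called at 6 h, 179 higher (1.17%) and 223 lower (1.46%). From 6 to 18 h, 2061 genes (13.5%) were called, 1155 higher (7.54%) and 906 lower (5.91%). The comparisons share libraries, and each is given on its own. None of the 48 ribosome production genes was called at 6 h against 0 h, where their median was −0.0016 and 5 had an unadjusted p under 0.05, and 32 fell from 6 to 18 h with a median of −1.42. For nucleotide synthesis the numbers were 0 at 6 h (median 0.06, 10 at an unadjusted p under 0.05) and 18 lower from 6 to 18 h (median −1.16). Class II genes gave 0 edgeR calls at 6 h with a median of −0.32 and 10 at an unadjusted p under 0.05, and 12 of 17 rose from 6 to 18 h with a median of 1.51. NF-κB genes showed the other order, with 4 lower at 6 h and none lower from 6 to 18 h. Pim1 gave 27.1 and 25.8 CPM at 6 h, close to its 26.3 and 19.97 CPM at 18 h, and the membrane protein gene Cdh22 had likewise reached 6.204 and 5.07 CPM at 6 h from 30.2 and 27.4 CPM at 0 h.

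**Figure D4:**
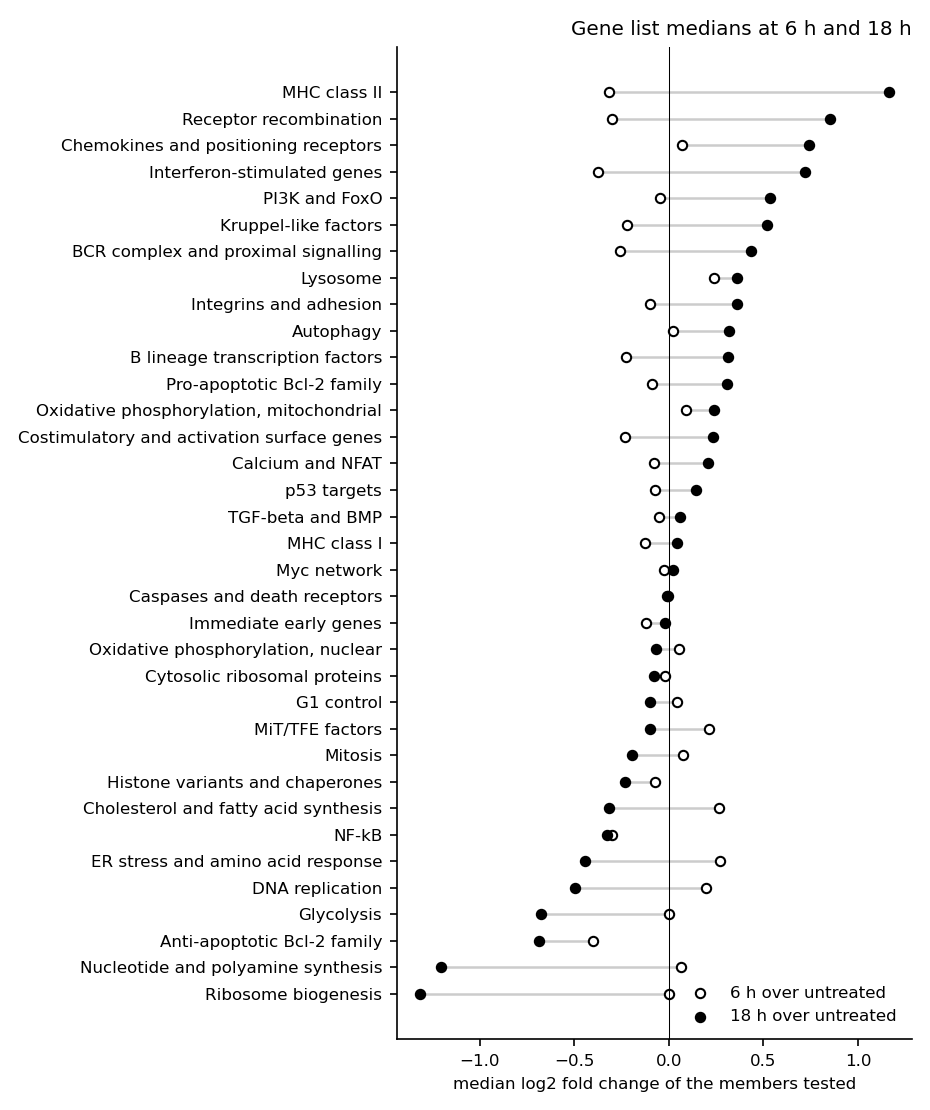
Median log2 fold change (x axis) of the tested members of each of 35 gene lists (rows) at 6 h (open circles) and 18 h (filled circles), both against the same untreated libraries. Ribosome biogenesis is at 0 at 6 h and at −1.32 at 18 h, MHC class II goes from −0.32 to 1.16, and NF-κB has nearly the same negative median at both times.

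Whether the parental response depended on Tfeb was addressed by testing the response of each knockout clone, a line grown from a single cell, against the parental one. In clone #A-59 5 genes (0.0326%) responded differently at 18 h, 3 with a more positive log2 fold change (0.0196%) and 2 with a more negative one (0.0131%) than in parental cells. In clone #B-20 the number was 25 (0.163%), 13 more positive (0.0849%) and 12 more negative (0.0783%). At an unadjusted p under 0.05 the numbers were 1021 and 2079. All 5 genes of #A-59 were among the 25 of #B-20. Both tests used the same parental libraries, so the shared genes are not independent findings in the 2 clones. They were Lztfl1, Rnf157, Gm29695, Gm36043 and Shank1, which lie outside the rule for named genes and were named after their values had been seen. Lztfl1, a regulator of ciliary trafficking, gave 26.9 and 23.8 CPM at 0 h, against 118 and 116 CPM at 18 h in parental cells, a log2 fold change of 2.21, where #A-59 had 0.54 and #B-20 −0.19. For Rnf157, a RING finger ubiquitin ligase, the parental value was −1.51, that of #A-59 −0.34 and that of #B-20 0.17.

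Of the genes named by rule, 6 were called in #B-20 and not in #A-59, whose value lay between the other 2 in each, and the clones were not tested against each other. Slc19a1 had log2 fold changes of −2.78, −2.05 and −1.28, in the order parental cells, #A-59, #B-20. For Plac8 the values were 3.38, 2.70 and 2.35, for Camkk1 2.58, 1.18 and 0.99, and for Slamf6 2.32, 1.64 and 1.01. Nfkbia had −1.68, −0.88 and −0.47, and Il21r −1.53, −0.40 and −0.18. No gene of ribosome production, nucleotide synthesis or MHC class II was called by edgeR in this test in either clone. At an unadjusted p under 0.05 there were 3 of 48, 5 of 28 and 3 of 17 such genes in #A-59, against 1021 of all 15318 genes. In #B-20 there were 21, 17 and 0, against 2079 of all genes. Within the clones, 33 ribosome production genes were called lower at 18 h in #A-59 and 24 in #B-20, beside 34 in parental cells. For nucleotide synthesis these counts were 19, 4 and 18. The share of all genes called within each clone is not given here. The counts thus do not show whether fewer calls in #B-20 were particular to these lists. The lack of calls in the test of the difference does not show equal responses. The median log2 fold change of ribosome production genes at 18 h was −1.23 for #A-59 and −1.002 for #B-20, and that of nucleotide synthesis −1.26 and −0.79, beside −1.32 and −1.21 in parental cells. The clones also differed from parental cells before stimulation, and effects of single-cell cloning and of the missing Tfeb cannot be told apart within a clone.

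**Figure D5:**
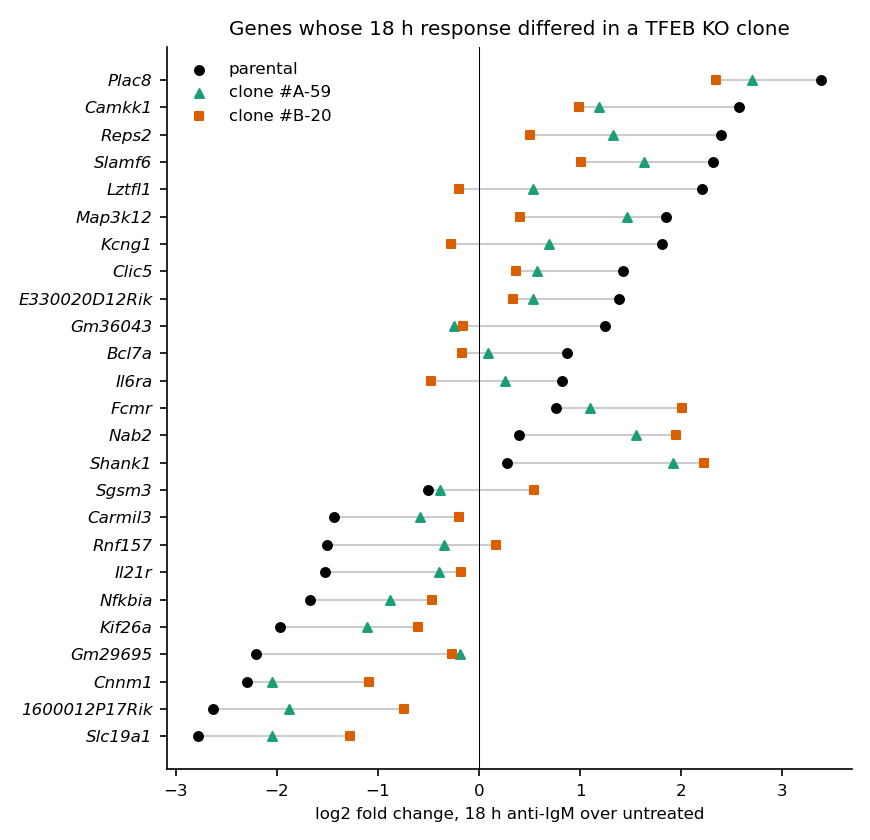
log2 fold change at 18 h against 0 h (x axis) in parental cells (black circles), clone #A-59 (green triangles) and clone #B-20 (orange squares) for the genes (rows) whose response passed the test of the difference in either clone. For 21 of the 25 genes the parental value is the farthest from 0, as for Plac8 (3.38) and Slc19a1 (−2.78), while Shank1 responds more in both clones. The genes were selected on these same differences, taken from shared parental values. That selection by itself favors an extreme parental value, so the count of 21 is no separate result.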

How the data were processed

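The authors deposited 1 table of gene counts per library, whole numbers of reads per Ensembl gene without normalization. As the study's methods state, they made non-stranded TruSeq libraries, read single ends, aligned to GRCm38 and counted on genes. The submitters' processing notes name bcl2fastq 2.20.0.422, STAR 2.5 and featureCounts 1.5.0-p1. Reads from stretches shared by overlapping or antisense genes, and reads of close copies, cannot be told apart in such counts.

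From these counts, filterByExpr of edgeR 4.0.16 in R 4.3.3 kept 15318 of 55487 genes. Scaling used TMM factors. A quasi-likelihood fit with 1 mean per group took in all 18 libraries, whose groups then share an estimate of the spread. Within a comparison, Benjamini-Hochberg adjustment ran over all genes tested, and the study's thresholds (adjusted p under 0.01, log2 fold change above 1 or below −1) defined a call. Replicates differed by more than sampling noise in each group. The spread between 2 libraries per group may be partly technical. Counting error sets a floor of 3 counts, equal to 0.109 to 0.267 CPM in the libraries compared.

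The members and the 42 gene lists were chosen with earlier results of these data known. Named were the 10 genes with the largest change in each direction (protein-coding, at least 10 CPM at either time, no overlap), up to 6 called genes per list and direction, and a fixed set of cell cycle, apoptosis and B cell genes, in all 171 tested genes and 4 below the filter. The model was checked on simulated counts for the comparison of 18 h with 0 h: of 200 genes changed by a log2 of 2 among 14818, edgeR called 190 and no unchanged gene.

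Alternatives were DESeq2 1.42.0, other size factors, other filters, fewer libraries in the fit, the replicate block, other thresholds, a GC correction with GENCODE release 39 (loess span 0.5), each library left out and, chosen after the data were seen, thinning of the parental libraries to 11223588 counts. Promoter windows and gene coordinates came from RefSeq on GRCm38. Some genes that the rule names are not reported here.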

Additional observations from a re-analysis of the deposited data

Results flagged for a closer look

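The following values passed the test of a difference in the 18 h response between a TFEB knockout clone and parental cells, given as clone minus parental on the log2 scale. In clone #A-59, where 5 genes passed, the difference was 2.02 for Gm29695, 1.65 for Shank1, 1.16 for Rnf157, −1.49 for Gm36043 and −1.67 for Lztfl1. In clone #B-20, where 25 genes passed, the same genes differed by 1.94 (Gm29695), 1.95 (Shank1), 1.68 (Rnf157), −1.41 (Gm36043) and −2.40 (Lztfl1). The gene body of Gm36043 overlaps that of Cd274, Gm29695 that of Lemd1 and Lztfl1 that of Ccr9. Reads from stretches that both genes of a pair share cannot be told apart. Whether their exons overlap was not checked. Among the genes named by rule, #B-20 differed by 1.5 for the folate carrier Slc19a1, 1.35 for Il21r, 1.21 for Nfkbia, −1.04 for Plac8, −1.31 for Slamf6 and −1.58 for Camkk1. These 6 were not called in #A-59, and the clones were not tested against each other here. The differences of both clones were taken against the same parental libraries and are not independent. What lies behind the differences was not tested.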

How the results depend on the processing

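At 18 h against 0 h, the number of called genes stayed within 1.5 times 1579 under every alternative of tool, scaling, filter, libraries in the fit and GC content, with 1427 by DESeq2, 1614 with the replicate block and 1422 after thinning, and 1229 to 1495 with each library left out. Other thresholds gave 6704 genes (adjusted p under 0.05, no fold threshold) and 224 genes (log2 fold change beyond 2). With each library left out, the count from 6 to 18 h was 1712 to 1960 and that at 6 h against 0 h 240 to 332, the latter lowest without replicate 2 at 0 h. The altered responses depended most on the setting. For #A-59 there were 11 genes by DESeq2, 20 without a filter on low counts, 9 with the replicate block and 1 to 3 with a library left out. For #B-20 there were 47, 80, 38 and 5 to 23, and 15 with only the groups compared. Same-numbered libraries deviated together with a correlation over 0.1 in 20 of 36 pairs of groups (−0.07 to 0.58), among them all 9 pairs of times within a line (0.16 to 0.58). This is a hint from the data that libraries of a number may share an experiment; the labels do not say so, and the pairing was not used. Of 138 named genes that were called, 97 kept their call under every alternative apart from the larger fold threshold, 41 lost it in at least one, and none changed direction. Medians of lists near 0 changed sign, for MHC class I to −0.027 without a filter and, over the libraries left out, ranging from −0.051 to 0.025 (negative in 3 of 4 cases), and for TGF-β and BMP to −0.012 without a filter. Over the alternatives, medians also took both signs for the TFEB family and its regulators (−0.168 to 0.118) and for immediate early genes (−0.118 to 0.120). The same held for the Myc network (−0.072 to 0.080) and for caspases and death receptors (−0.072 to 0.053). The cause was not tested. Depth limits genes of few counts, since replicate 1 at 18 h held the fewest counts of the parental libraries.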
